A study of Rattus norvegicus with 9 samples.

Results

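The genes described here are 7 genes of the secondary, or specific, granules of neutrophils: Ltf, Camp, Ngp, Lcn2, Mmp8, Cd177 and Pglyrp1. They were chosen by symbol, 7 of the 41801 genes listed for each library, and all 7 had at least 1 unique molecular identifier (UMI, 1 counted RNA molecule). The tissue was the proximal tibia of Sprague-Dawley rats of 6 to 8 weeks. Every rat had a 3 mm circular tibial osteotomy and a 4 mm full-thickness skin wound on the back of the hind foot. The TO libraries came from rats with the osteotomy alone. The TOE libraries came from rats that also received radial extracorporeal shock waves (rESWT) at the osteotomy. The 2d TOE libraries followed a session on day 2, and the 4d ones sessions on days 2 and 4. TOE tissue was taken 4 or 24 h after a session and TO tissue, with no session, at the matching times. A further TO library was taken on day 2 at 0 h. The 8 libraries analysed were TO 2d 0h, TO 2d 4h, TO 4d 4h, TO 4d 24h, TOE 2d 4h, TOE 2d 24h, TOE 4d 4h and TOE 4d 24h. TO 2d 24h, a condition of the same study, was not analysed here, so TOE 2d 24h had no partner. Each condition was 1 library. The study names 9 rats for its 9 conditions, and how rats were divided among libraries is not given in the sources used here.

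Neutrophils form in the bone marrow and fill their granules in waves. Azurophil (primary) granules, which hold proteases and defensins, are made first, specific granules follow in myelocytes and metamyelocytes, and gelatinase (tertiary) granules come last. Specific granules carry antimicrobial proteins, iron-withholding proteins and a collagenase, and the transcription factor C/EBP epsilon is known to be needed for their genes. Camp encodes cathelicidin, the precursor of an antimicrobial peptide, and Ngp encodes a related protein of the cystatin fold. Lcn2 encodes lipocalin 2, which binds bacterial siderophores, and Ltf encodes the iron-binding protein lactoferrin. Mmp8 encodes neutrophil collagenase, Pglyrp1 a protein that binds peptidoglycan, and Cd177 a surface glycoprotein of neutrophils.

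Camp, Ngp, Ltf and Mmp8 lie on chromosome 8 of the RefSeq assembly GRCr8, and the starts of Camp and Ltf are 1156 kb apart with Ngp between them, 551 kb from Camp and 606 kb from Ltf. The 250 bases before each start are shown for these 4 genes because they share a chromosome and the results turn on them. Capitals mark matches, on either strand, to the C/EBP core letters TTNNGNAA. The sequences were taken from Ltf at chr8:119878094-119878343 (+ strand), Camp at chr8:118721999-118722248 (- strand), Ngp at chr8:119272355-119272604 (+ strand) and Mmp8 at chr8:13008640-13008889 (+ strand).
Ltf: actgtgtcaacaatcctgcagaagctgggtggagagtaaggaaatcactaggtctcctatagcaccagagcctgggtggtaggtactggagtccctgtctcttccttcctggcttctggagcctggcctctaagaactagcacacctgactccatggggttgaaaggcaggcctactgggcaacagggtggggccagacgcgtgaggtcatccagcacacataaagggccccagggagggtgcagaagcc
Camp: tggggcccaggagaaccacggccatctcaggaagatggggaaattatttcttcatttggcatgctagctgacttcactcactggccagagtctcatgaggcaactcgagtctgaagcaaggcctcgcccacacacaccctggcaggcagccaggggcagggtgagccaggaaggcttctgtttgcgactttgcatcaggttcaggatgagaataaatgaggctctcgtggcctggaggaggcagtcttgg
Ngp: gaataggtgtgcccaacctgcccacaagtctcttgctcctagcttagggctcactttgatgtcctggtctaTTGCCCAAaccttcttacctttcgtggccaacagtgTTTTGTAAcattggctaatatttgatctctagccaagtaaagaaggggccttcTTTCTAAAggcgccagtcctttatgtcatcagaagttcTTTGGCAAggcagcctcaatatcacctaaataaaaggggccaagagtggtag
Mmp8: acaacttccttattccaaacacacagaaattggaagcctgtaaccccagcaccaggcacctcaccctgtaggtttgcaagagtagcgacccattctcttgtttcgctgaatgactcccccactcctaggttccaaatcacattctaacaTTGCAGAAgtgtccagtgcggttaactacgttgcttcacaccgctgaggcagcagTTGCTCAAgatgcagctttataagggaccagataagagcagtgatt
Ngp held 4 matches, Mmp8 held 2, and Lcn2 and Cd177 held 1 each, so 4 of 7 genes had a match against 37.2% of 33469 promoters of the same length. The letters GAGGAAG, which PU.1 binds, were found in 1 of the 7 windows, that of Pglyrp1 with 2 matches, and in 10.2% of all promoters. Such matches describe letters in a window and were not tested as binding sites.

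The libraries held 116711 cell barcodes, with 95954800 to 144146202 UMIs each and a median of 4522 to 5668 UMIs per cell. After filters 111646 cells remained in 31 clusters, and 12 cell classes were named from marker genes, leaving 17.7% of cells unnamed. Any 2 libraries shared 40 to 110 barcodes, with a median of 57.0 over 28 pairs. The neutrophil-like class was clusters 10, 13, 14 and 26. These clusters raised 5 to 11 of 12 neutrophil markers, but cluster 10 was led by defensins and cluster 26 by chemokines, so this population is called the neutrophil clusters below. They made up 8.33% of the cells of TOE 2d 4h and 26.8% of those of TOE 4d 24h, the lowest and highest shares.

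Camp, Ngp, Lcn2, Mmp8, Cd177 and Pglyrp1 were concentrated in the neutrophil lineage. Between 92.7% (Pglyrp1) and 94.0% (Mmp8) of their UMIs were in neutrophil-like or granulocyte-monocyte-progenitor-like cells. Over the libraries the share of all member UMIs in these cells was 93.0% ± 1.59 (SD, n = 8). Levels are in CPM, the UMIs of a gene per 1000000 UMIs of the same cells, from UMIs summed per library. They are tag counts, 1 per molecule at the 3' end, and are not divided by transcript length.

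In the neutrophil clusters Camp was between 14615 and 19116 CPM, with a median of 15731 over the 8 libraries. Its range was narrow beside that of Ngp, which ran from 4065 to 17492 with a median of 8705. Lcn2 ranged from 118 to 7178 CPM with a median of 2193, where the 118 CPM was TO 2d 0h and the other 7 libraries began at 1777. Mmp8 (1429 to 3476 CPM, median 2124), Pglyrp1 (1720 to 3559, median 2228) and Cd177 (370 to 713, median 487) stayed within narrower limits. The library ranges of Lcn2, Mmp8 and Pglyrp1 overlapped.

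In other classes the same 6 genes were found at low levels. B-cell-like cells, which should lack them, held 138 CPM of Camp against 16597 in the neutrophil clusters, both summed over all libraries. With each cell thinned to 2000 UMIs, 23.4% of B-cell-like cells and 91.8% of neutrophil-like cells had a Camp UMI, and the unthinned shares were 41.0% and 93.4% at median depths of 3942 and 5679 UMIs. Shares near the B-cell level are taken here as background RNA, on the assumption that B cells lack these genes, which was not tested. The thinned share for Camp in erythroid-like cells was above that level, at 39.7%. Outside the neutrophil clusters Camp, summed over libraries, was between 132 CPM in monocyte-like and 384 CPM in mast-cell/basophil-like cells. It was 323 in erythroid-like and 212 in granulocyte-monocyte-progenitor-like cells. Single libraries weighed on such sums: erythroid-like cells of TO 2d 4h held 818 CPM. The library medians were 246 CPM in erythroid-like and 204 CPM in mast-cell/basophil-like cells (range 88.7 to 1139). Ngp UMIs per 100 Camp UMIs had a median over libraries of 67.2 in B-cell-like, 61.1 in mast-cell/basophil-like (range 6.86 to 111) and 126 in endothelial-like cells (range 24.0 to 214). The ratio of Lcn2 to Camp in endothelial-like cells was 1.62 times that of B-cell-like cells in the median library, and higher in 5 of 6 libraries. For Cd177 in the same cells it was 1.75 times (higher in 3 of 3). For Mmp8 in monocyte-like cells it was 1.26 times (higher in 7 of 8). Lcn2 in mast-cell/basophil-like cells went the other way, at 0.544 times (higher in 0 of 6). In macrophage-like cells the ratio of Lcn2 to Camp was 1.06 times that of B-cell-like cells in the median library. It was 5.29 times in the highest, TO 2d 0h, where Lcn2 was 10.5 CPM in macrophage-like and 1.23 CPM in B-cell-like cells.

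**Figure D1:**
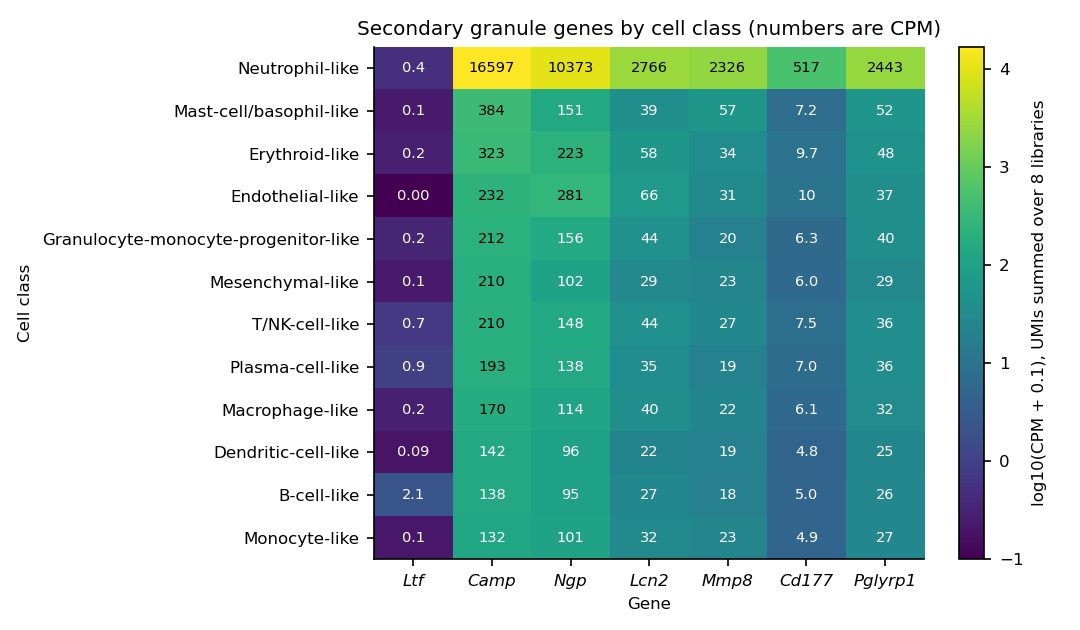
Level of each gene (columns, CPM printed in the cells, colour on a log10 scale of CPM + 0.1) in the 12 named cell classes (rows), with UMIs summed over 8 libraries. Camp, Ngp, Lcn2, Mmp8, Cd177 and Pglyrp1 stood out in the neutrophil-like row, while Ltf was highest in B-cell-like cells at 2.15 CPM.

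Counts assigned to Ltf did not follow the others. There were 824 UMIs in 702 cells, against 65624 UMIs for Cd177, the next lowest member. Whether the gene model used for counting covers the 3' end of Ltf, where this assay reads, was not tested, so these values are not read as its expression. Only 7.89% of its UMIs were in neutrophil-like and progenitor-like cells, and 56.7% were in B-cell-like cells. Its level was 2.15 CPM in B-cell-like cells (95% exact Poisson interval 1.96 to 2.35) and 0.434 CPM in the neutrophil clusters, from 51 UMIs. The B-cell-like level was the higher in 8 of 8 libraries, although the ranges over libraries, 0.786 to 3.88 and 0.0754 to 0.997 CPM, overlapped. Within the B-cell-like class cluster 6 held 158 Ltf UMIs in 110 cells, or 3.96 CPM. Over all cells, the most Ltf UMIs in a single cell was 25, and Poisson intervals take no account of such clumping. Cluster 26 had a higher level of 8.56 CPM (3.69 to 16.9), but from 8 UMIs in 5 cells. Of the granulocytic stages described next, defensin-led cells held 23 Ltf UMIs (0.603 CPM), and the intermediate and late stages 6 each. All intervals of this kind cover counting error only.

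Granulocytic cells, 17539 in all, were clustered again without the 7 genes, giving 17 sub-clusters. The stages were named from other granule and maturation genes, so levels by stage are a description. Early cells were split into a protease-led sub-cluster of 1269 cells (Elane, neutrophil elastase, at 8092 CPM) and the other early sub-clusters of 2533 cells (Defa5, a defensin, at 53971 CPM). The latter are called defensin-led after sub-clusters 1 and 16. Sub-cluster 2, with 939 of these cells, was instead led by histone genes such as Hist2h4, had 1 defensin, RatNP-3b, among its 10 leading genes, and stayed unnamed when stages were named against all other cells. Of the defensin-led cells of TOE 4d 24h it held 389 of 390, while those of TO 4d 24h were split into 57, 81 and 57 over sub-clusters 1, 2 and 16. An intermediate stage of 4357 cells and a late stage of 6656 cells followed. Sub-cluster 3, with 1324 of the intermediate cells, took the late-stage name when stages were named against all other cells. A chemokine-led late sub-cluster held 402 cells, 311 of them from TO 2d 0h, and 2322 cells stayed unnamed.

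Camp was already near its intermediate-stage level in defensin-led cells of the median library, though not of every library. Its median over 8 libraries was 233 CPM in protease-led cells, 18880 in defensin-led cells, 24896 in the intermediate stage and 3822 in the late stage. Defensin-led cells held 90.2 times the protease-led level in the median library. The intermediate stage then held 1.04 times the defensin-led level in the median library, with a range of 0.988 to 1.69 over libraries. The rise was larger in TO 2d 0h, from 17634 to 29357 CPM, and in TO 4d 24h, from 19605 to 33120 CPM. TOE 2d 24h likewise went from 17609 to 28335 CPM. Lcn2, Pglyrp1, Cd177 and Ngp also rose from protease-led to defensin-led cells, 32.0-, 24.1-, 23.7- and 9.28-fold in the median library, and Mmp8 2.50-fold. Unlike Camp, each of them was at least 2-fold higher again in the intermediate stage in each library.

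Ngp, Lcn2, Cd177 and Pglyrp1 peaked in the intermediate stage. Ngp went from a library median of 1757 CPM in defensin-led cells to 21374 in the intermediate stage and 1402 in the late stage. The corresponding Lcn2 medians were 934, 5778 and 373 CPM. Their intermediate over late ratios were 11.8 for Ngp and 12.3 for Lcn2 in the median library. Cd177 had medians of 176, 970 and 343 CPM, and its intermediate over late ratio was 3.01. Pglyrp1 had medians of 906, 3411 and 2345 CPM and a ratio of 1.46. At a Leiden resolution of 0.5, which draws the stages more coarsely, its intermediate over late difference turned to -0.36 on the log2 scale.

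Mmp8 came last. Its median was 21.0 CPM in protease-led, 68.8 in defensin-led, 2572 in intermediate and 4947 in late-stage cells. The intermediate stage exceeded the defensin-led cells 44.6-fold in the median library, the largest such ratio of the 6 genes. Intermediate over late was 0.514, and Mmp8 was lower in the intermediate stage in 8 of 8 libraries. In late-stage cells thinned to 2000 UMIs, 93.3% had an Mmp8 UMI, against 31.0% for Ngp and 19.6% for Lcn2. In B-cell-like cells thinned alike the shares were 3.62%, 16.8% and 5.28%, so that of Ngp stood least above the B-cell level.

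**Figure D2:**
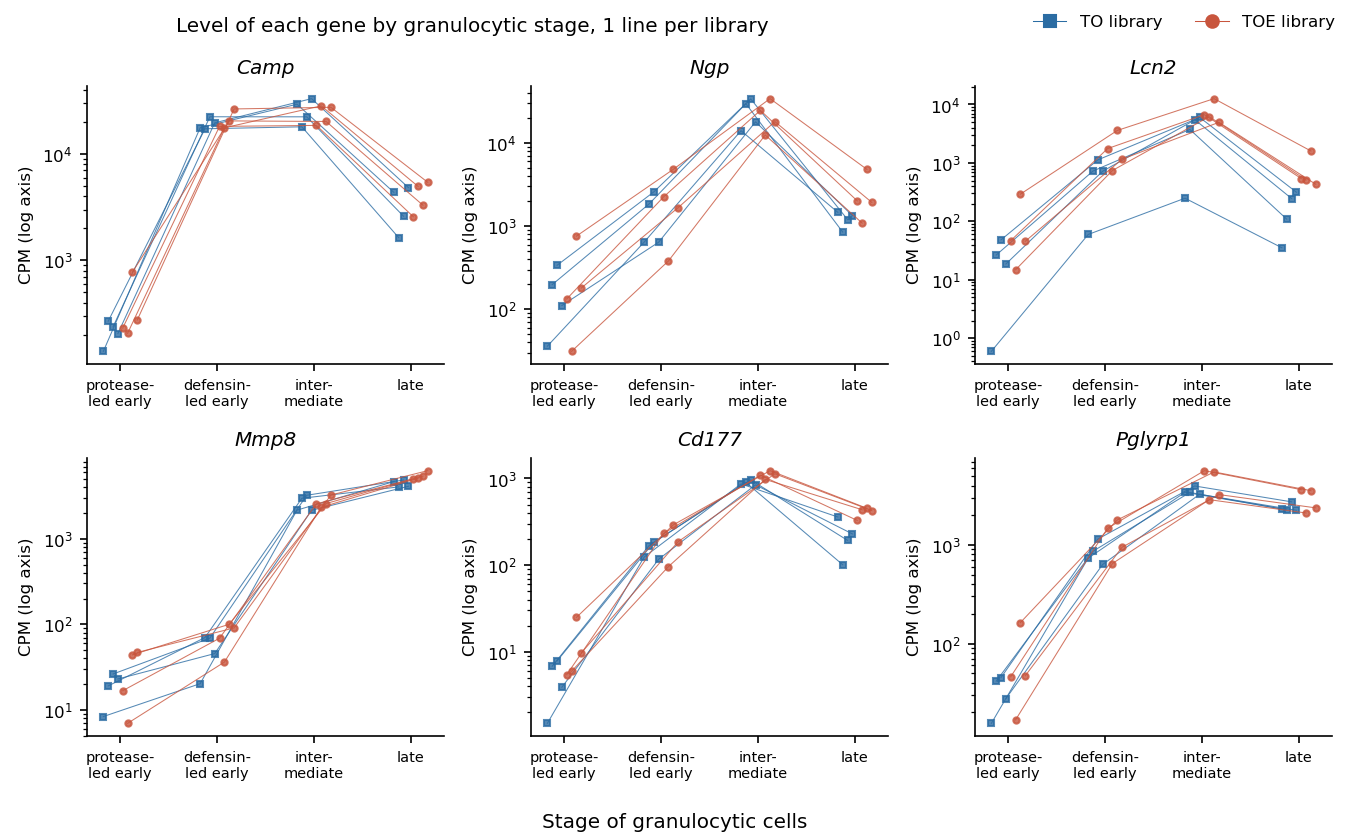
Level (CPM, log axis) of 6 genes in 4 granulocytic stages, 1 line per library, TO as blue squares and TOE as red circles. Camp is high in both defensin-led and intermediate cells, Ngp, Lcn2, Cd177 and Pglyrp1 peak in intermediate cells, and Mmp8 is highest in late cells in all 8 libraries.

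Counted gene by gene, 5 of 6 genes were at least 2-fold higher in defensin-led than protease-led cells in each of 8 libraries. Of 13521 genes tested, 4.14% met that rule upwards and 13.4% met it downwards. From defensin-led to intermediate cells 5 of 6 were at least 2-fold higher in each library, against 3.72% of 13187 genes higher and 5.85% lower. From late to intermediate cells 4 of 6 were higher by that rule, against 2.16% of 12660 genes higher and 3.70% lower. The exceptions were Mmp8 in the first step, Camp in the second, and Mmp8 and Pglyrp1 in the last. These counts depend on where stages were drawn: the 4 became 0 at a Leiden resolution of 0.5, and 0 when stages were named against all other cells. The summed level of the genes was higher in intermediate than late cells by 2.15 ± 0.33 on the log2 scale (SD, n = 8). It was higher by 1.12 at the resolution of 0.5 and by 1.51 with stages named against all other cells.

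Other granule genes were placed by the same stages, several of which they had helped to name. Of 8 primary granule genes 5 were at least 2-fold lower in defensin-led than protease-led cells in each library, against 13.4% of all genes, with Mpo (myeloperoxidase) at 328 and 3178 CPM summed over libraries. Another, Defa5, was at least 2-fold higher there in each library, as were 4.14% of all genes. The 5 lower genes were Mpo, Elane, Prtn3 and Ctsg, on which early cells were split, and Prss57, a marker of the early stage. Their count was thus largely set by the naming and is no finding. Of 6 tertiary granule genes 5 were at least 2-fold higher in intermediate than defensin-led cells in each library, against 3.72% of all genes, and 0 were lower, against 5.85%. Mmp9, gelatinase B, was 11.7 CPM in defensin-led, 523 in intermediate and 644 in late cells summed over libraries, an order like that of Mmp8. It was lower in intermediate than late cells in 7 of 8 libraries, with overlapping ranges, where Mmp8 was lower in 8 of 8. Cebpe, the gene of C/EBP epsilon, was 88.3 CPM in protease-led, 337 in defensin-led, 389 in intermediate and 53.5 in late cells.

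Genes of proteins that bind the members were also spread over stages and classes. Fpr2, a receptor of cathelicidin peptides, was 537 CPM in intermediate and 189 CPM in late cells. Trem1, which binds Pglyrp1 protein, was 323 CPM in intermediate and 532 CPM in late cells. Pecam1, a partner of Cd177 protein, was 700 CPM in endothelial-like cells, 131 CPM in B-cell-like cells and 33.3 CPM in intermediate cells. Fpr2 and Trem1 were among the markers of the late stage and Pecam1 among those of endothelial-like cells, so their levels there are a description. Timp1, an inhibitor of matrix metalloproteinases such as Mmp8, was 1526 CPM in mesenchymal-like cells and 11.4 CPM in late-stage cells. Of 12 such genes measured 4 were at least 2-fold higher in defensin-led than protease-led cells in each library and 0 were lower, against 4.14% and 13.4% of all genes.

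Over 31 clusters of all cells, the gene whose pattern was most like the mean of the members was Ifitm6 (Pearson r = 0.986 of log levels), followed by S100a9 (0.978), Klra4 (0.965) and Olfm4 (0.962). Each member other than Ltf had r between 0.952 (Mmp8) and 0.997 (Pglyrp1) with that mean, and Ltf had -0.076. The mean includes the member itself, so these values cannot be set beside those of other genes. Over the 17 granulocytic sub-clusters Ngp and Lcn2 were closest, with r = 0.95, and Camp and Mmp8 farthest apart, with r = 0.32. The clusters share their libraries, and these values are descriptions.

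Lcn2 was far lower in 1 library than in the others. Over all kept cells it was lowest in TO 2d 0h (11.3 CPM). The other TO libraries held 286 CPM (2d 4h), 476 CPM (4d 4h) and 192 CPM (4d 24h). The TOE libraries held 335 CPM (2d 4h), 218 CPM (2d 24h), 909 CPM (4d 4h) and 572 CPM (4d 24h). Without TO 2d 0h, Lcn2 ran from 192 to 909 CPM, Ngp from 425 to 2658 and Mmp8 from 152 to 838. In such whole-library levels, more neutrophils and more RNA per neutrophil cannot be told apart. Within intermediate-stage cells the low value of TO 2d 0h remained, at 249 CPM (223 to 278) against 3743 to 12595 CPM in the other 7 libraries. Camp, Ngp and Mmp8 in the same cells of TO 2d 0h were within the range of the other libraries. That library is the only one taken at 0 h, and its time point and its being 1 library cannot be told apart.

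**Figure D3:**
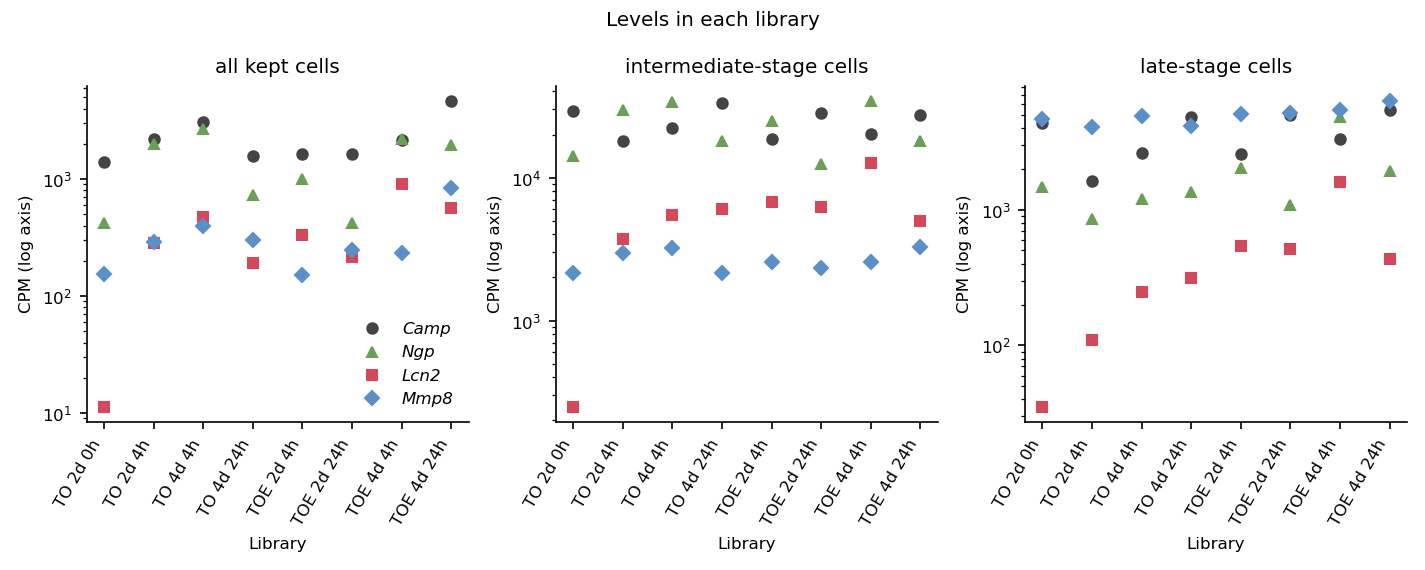
Level (CPM, log axis) of Camp, Ngp, Lcn2 and Mmp8 in each of 8 libraries, in all kept cells, intermediate-stage cells and late-stage cells, 1 point per library. Lcn2 in TO 2d 0h lies far below the other libraries in all 3 panels, at 11.3, 249 and 35.3 CPM.

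Libraries taken at 4 h were also compared with those taken at 0 or 24 h, 4 libraries each, over both treatments, a grouping chosen after the values were seen. In intermediate-stage cells Camp was 17996 to 22339 CPM at 4 h and 27453 to 33120 CPM otherwise, with no overlap. Ngp went the other way, 24667 to 34161 CPM at 4 h and 12481 to 18080 CPM otherwise. Of all genes in these cells 15.6% were higher at 4 h without overlap and 6.83% lower. In late-stage cells Camp was again lower at 4 h, 1631 to 3295 against 4349 to 5408 CPM, where 10.8% of genes were higher and 6.30% lower without overlap. In the neutrophil clusters Ngp was higher at 4 h, 9456 to 17492 against 4065 to 7955 CPM, where 17.0% were higher and 5.03% lower. In defensin-led cells Ngp was 1847 to 4821 CPM at 4 h and 381 to 1667 CPM otherwise, where 21.8% were higher and 4.29% lower. Counted over the members, 1 of 7 was higher and 0 lower in the neutrophil clusters, 1 of 6 higher and 0 lower in defensin-led cells, 1 of 6 higher and 1 lower in intermediate-stage cells, and 0 of 6 higher and 1 lower in late-stage cells. The other members overlapped, and counts this small are not read as a result about the members. Different sub-clusters held these cells in the 4 h and the other libraries. Intermediate sub-cluster 3, with Camp at 15710 and Ngp at 28603 CPM, held 155 to 477 cells of each 4 h library and 0 to 27 of each other one, and in TOE 4d 24h sub-cluster 5 held 1057 of 1064 intermediate cells. Late sub-cluster 11, with Camp at 1798 CPM, held 166 to 579 cells of each 4 h library and at most 15 of each other one, where sub-cluster 10 (Camp at 4600 CPM) or, in TOE 4d 24h, 4, 6 and 8 held most.

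The effect of shock waves was asked in 3 time-matched pairs of 1 TO and 1 TOE library. Within a pair there is no replicate, so the ratios below compare 2 libraries and their intervals cover counting only. In the neutrophil clusters Lcn2 was higher in TOE in all 3 pairs, with 1872 CPM in TO and 3157 CPM in TOE for the 2d 4h pair (1.69-fold), 2735 and 7178 CPM for 4d 4h (2.62-fold), then 1777 and 2325 CPM for 4d 24h (1.31-fold). Under a stricter cell filter the last of these turned to -0.74 on the log2 scale. In intermediate-stage cells, where Lcn2 peaked, the ratios were 1.79, 2.28 and 0.820. Among cells given that name, the 4d 24h pair thus went the other way (6040 CPM in TO, 4953 in TOE). The name left out unnamed sub-cluster 7, where Lcn2 was 3515 CPM over all libraries, below both of these levels. Its cells numbered 363 in the TO library at 4d 24h, against 15 in the TOE library. Whether the 4d 24h ratio stays under 1 with these cells counted was not tested. Intermediate cells too came from different sub-clusters: sub-cluster 5 held 54 of 169 in TO 4d 24h and 1057 of 1064 in TOE 4d 24h, and sub-cluster 3 held 477 of 838 in TO 2d 4h and 155 of 478 in TOE 2d 4h. In defensin-led cells Lcn2 was higher in TOE in each pair. It was 727 and 1757, 1128 and 3592, then 722 and 1159 CPM in TO and TOE, with the sub-clusters at 4d 24h differing as given above. In the neutrophil clusters as a whole, Cd177 was higher 1.09-, 1.40- and 1.64-fold and Pglyrp1 1.42-, 1.37- and 1.07-fold in the same order. There Camp, at 1.07, 0.971 and 1.29, Ngp, at 0.706, 1.14 and 1.17, and Mmp8, at 0.730, 0.810 and 1.21, lay on both sides of 1.

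Taking the pairs in that order, 0, 1 (Lcn2) and 0 of the 6 genes were at least 2-fold higher in TOE, where 5.23%, 0.901% and 10.4% of all genes were. None was at least 2-fold lower, against 2.84%, 1.57% and 8.62% of genes. The median log2 ratio of the 6 was 0.11, 0.32 and 0.33, and that of all genes 0.16, -0.09 and 0.09. The first turned to -0.05 with the median of all genes subtracted and to -0.31 with progenitor-like cells added, and the last to -0.22 under the stricter cell filter. The stage makeup of the cells differed within pairs: at 4d 24h, intermediate cells were 6.40% of granulocytic cells in TO and 30.5% in TOE. Unnamed sub-cluster 7, with Camp at 25142 and Ngp at 17988 CPM, levels like those of intermediate cells, held 363 cells of that TO library and 15 of that TOE library and is not in these shares. At 2d 4h protease-led cells were 7.12% in TO and 14.5% in TOE. The part of these shares in the ratios was not tested.

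Late-stage cells showed larger ratios. For the 2d 4h pair, Lcn2 was 109 CPM in TO against 540 in TOE (4.95-fold, interval 4.31 to 5.71). The 4d 4h libraries held 246 and 1600 CPM (6.50-fold, interval 6.02 to 7.02), and those of 4d 24h held 315 and 431 CPM (1.37-fold). Cd177 ratios were 3.23, 2.35 and 1.86, and Ngp ratios 2.37, 4.01 and 1.44. Camp (1.58, 1.27 and 1.12), Mmp8 (1.24, 1.11 and 1.52) and Pglyrp1 (1.60, 1.30 and 1.06) differed less. In that pair order 3, 3 and 0 of the 6 genes were at least 2-fold higher, against 5.26%, 2.36% and 14.3% of genes. For genes at least 2-fold lower the background was 4.66%, 1.50% and 9.64%, with none of the 6.

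Different sub-clusters held the late-stage cells of the 2 libraries at 4d 24h, mostly sub-cluster 10 in TO (1173 of 1481 cells) and sub-clusters 4, 6 and 8 in TOE (785, 453 and 389 cells). The makeup also differed at 4 h: sub-cluster 11 held 579 of 685 late-stage cells in TO 2d 4h and 166 of 327 in TOE 2d 4h, then 511 of 782 in TO 4d 4h and 204 of 380 in TOE 4d 4h. Cd177 was 118 CPM in sub-cluster 11 and 596 CPM in sub-cluster 4, and the part of this makeup in the ratios was not tested. Lcn2 and Cd177 were higher in TOE late-stage cells of both 4 h pairs under all 6 alternative cell filters, clusterings and stage names. Their log2 ratios ran from 0.67 to 3.17 for Lcn2 and 0.18 to 2.03 for Cd177 at 2d 4h. For the 4d 24h pair, Lcn2 ran from -2.09 to 1.88 and so turned. Ngp at 2d 4h turned below 0 in 2 of these alternatives (-0.92 and -0.56), and for 4d 24h it reached -2.42. Camp reached -0.14 (2d 4h) and -1.10 (4d 24h), Mmp8 -0.24 (4d 4h) and Pglyrp1 -0.11 (4d 24h).

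**Figure D4:**
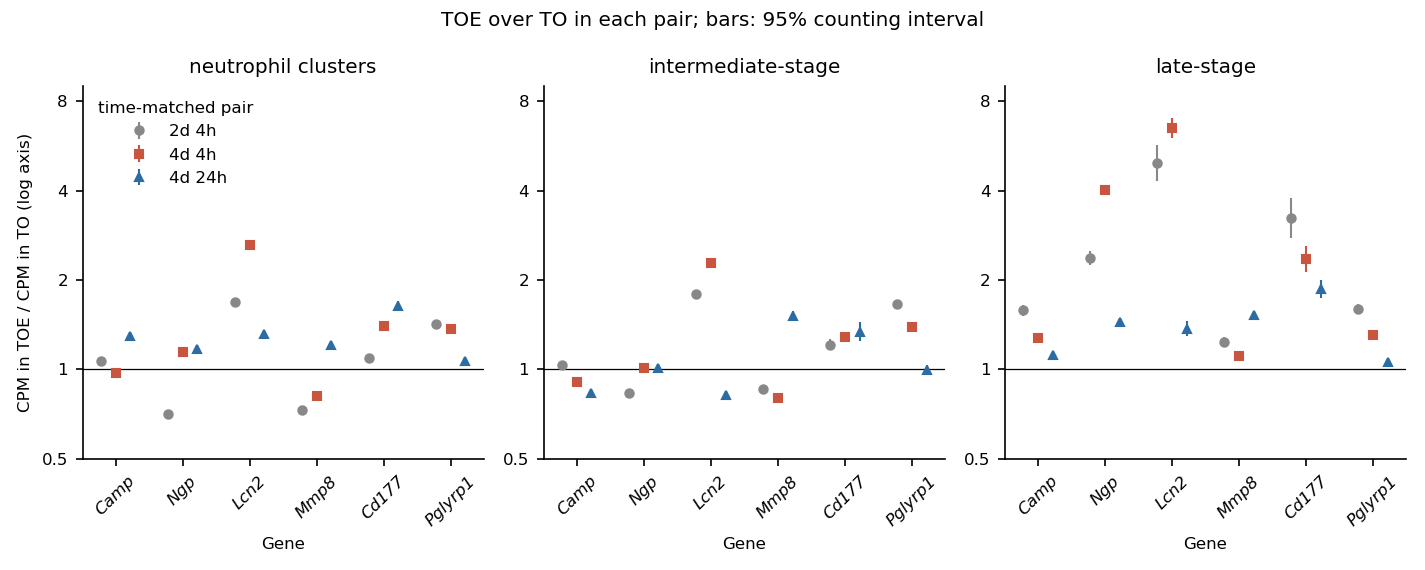
Ratio of CPM in TOE to CPM in TO (log axis, line at 1) for 6 genes in 3 time-matched pairs, in the neutrophil clusters, intermediate-stage and late-stage cells, with 95% exact intervals for counting. Lcn2 in late-stage cells has the largest ratios, 4.95 (2d 4h) and 6.50 (4d 4h).

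The 3 pairs were then taken as replicates, although they differ in day, hour and number of sessions, with the time point as a block. By edgeR's quasi-likelihood test with Benjamini-Hochberg adjustment 0 of 13534 genes were called, 0% of them, and so none of the 6. At an unadjusted p under 0.05 there were 969 genes. Lcn2 had a log2 difference of 0.82 (SE 0.27) with an adjusted p of 0.64 by edgeR, and was higher in TOE in 3 of 3 pairs. Its difference was 0.47 without the pair 4d 4h, 0.92 without 2d 4h and 1.05 without 4d 24h. When all 24460 genes with at least 1 UMI were kept, edgeR called 258 genes and Lcn2 was among them (adjusted p = 0.0353). On the same 24460 genes DESeq2 called 130, none of them in the set. Cd177 was at 0.42 (SE 0.22) and Pglyrp1 at 0.33 (SE 0.21), with edgeR adjusted p of 0.686 and 0.712. Camp was at 0.12 (SE 0.23), Ngp at -0.05 (SE 0.27) and Mmp8 at -0.18 (SE 0.23), with edgeR adjusted p of 0.893, 0.968 and 0.839. In late-stage cells, a fit that was not planned, Lcn2 differed by 1.72 (edgeR adjusted p = 0.245), Cd177 by 1.15 (0.234) and Ngp by 1.14 (0.247). Camp (0.27), Mmp8 (0.24) and Pglyrp1 (0.26) differed less there. In that fit edgeR called 0 genes, with 1141 at an unadjusted p under 0.05. Ltf fell under the count filter of the first fit, and with all genes kept its log2 difference was 0.35 (edgeR adjusted p = 0.969).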

How the data were processed

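Single-cell RNA was captured with 10x Genomics 3' chemistry. The authors deposited, per library, a matrix of UMI counts per gene and barcode. The submitters' processing notes list Cell Ranger 9.0.0, R 4.0.3 and Seurat, and the builds mRatBN7.2 and GRCh38, without their roles. All values here start from those deposited counts, whose depth is 95954800 to 144146202 UMIs per library.

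Barcodes under 200 detected genes or over 20% mitochondrial UMIs were dropped, and those with a Scrublet score above 0.25 were removed (2.43% to 4.15% per library), because the automatic threshold marked none in 4 libraries. Counts were scaled to 10000 per cell, and 2000 variable genes without the members, 30 components, 15 neighbours and Leiden resolution 1 gave the clusters (Scanpy 1.11.5). A cluster took a name where at least 3 markers were raised by 1 on the log2 scale. The naming rules, the split of early cells and the chemokine-led group were settled after the clusters were seen. The members and gene lists were chosen with earlier results of these data known. Genes named were the members, list genes and those whose pattern was most like the members' mean.

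UMIs were summed per library and cell group and given as CPM with 95% exact Poisson intervals. Shares have exact Clopper-Pearson intervals and ratios exact conditional ones. Where a gene had 0 counts, 3 counts were taken as the limit. Pairs of single libraries were not tested. The only test, edgeR 4.0.16 (quasi-likelihood, Benjamini-Hochberg, 6 libraries, time point as block, 2 residual degrees of freedom), used summed counts. Simulated data with no time-point effect and the same dispersion in all genes were also fitted, and no outcome of that is used here. DESeq2 1.42.0 was an alternative. The others were a stricter cell filter, doublets kept, Leiden resolutions of 0.5 and 2, members among the clustered genes, RLE normalization, no low-count filter, no block, single stages, and each library or pair left out. Nothing says that libraries came from separate groups of animals, so p-values measure spread among these libraries only. With the time point as block, that is how the TOE to TO difference varied among the pairs. Those pairs differ in day, hour and number of sessions.

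Promoter sequences were taken from RefSeq GRCr8 by symbol, and all 7 members matched. That assembly differs from the build in the processing notes, and its coordinates were used for sequence and distance only.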

Additional observations from a re-analysis of the deposited data

Results flagged for a closer look

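In the neutrophil clusters, 3 of the 6 genes were on opposite sides of 1 in different time-matched pairs, with counting intervals that left out 1. The TOE over TO ratio of Camp was 0.971 in the 4d 4h pair and 1.29 in the 4d 24h pair. Over the main setting and the alternatives, its log2 ratio ran from -0.08 to 0.05 at 4d 4h and from -0.48 to 0.38 at 4d 24h. It thus changed side within each of these pairs. From the 2d 4h to the 4d 24h pair, the ratio of Ngp was 0.706 and 1.17, and that of Mmp8 0.730 and 1.21. The difference between pairs was not tested, since each condition is 1 library.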

How the results depend on the processing

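Lcn2, Cd177 and Pglyrp1 were above 0 in the fit over the 3 pairs under every fit run. Each was higher in TOE in every pair of the neutrophil clusters, so most of these fits could hardly turn its sign. The stricter cell filter and the other clusterings were not put through this fit. Genes called were 0 with the time-point block and 0 with no replicate block (693 genes at an unadjusted p under 0.05), and the block changed no call. With all 24460 genes kept they were 258 by edgeR (1 member, Lcn2) and 130 by DESeq2, which was run on that gene set only. They were 0 to 24 when a pair was left out: 24 without the pair 4d 24h and 2 without the pair 4d 4h. Labels number each condition's sole library 1, so pairing rests on the time point alone.

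In that fit the log2 value of Ngp turned to 1.14 in late-stage cells and 0.24 without the pair 2d 4h, and Mmp8 to 0.24, 0.02 and, in intermediate-stage cells, 0.04, with -0.40 to 0.02 over the left-out pairs. Camp turned to -0.10 in intermediate-stage cells. The median log2 ratio of the members at 2d 4h, 4d 4h and 4d 24h was 0.37, 0.65 and 0.67 in defensin-led, 0.16, 0.18 and 0.00 in intermediate-stage and 0.96, 0.80 and 0.49 in late-stage cells, from different sub-clusters in the libraries of a pair. With the median of all genes subtracted it was -0.05, 0.41 and 0.24. With progenitor-like cells added, an alternative chosen after seeing the data, it was -0.31, 0.14 and 0.89. It was 0.22, 0.46 and 0.36 with doublets kept. At 2d 4h and 4d 4h it was 0.24 and 0.40 at resolution 2, and 0.22 and 0.38 with members clustered. Under the strict cell filter it was 0.38 at 4d 4h and -0.22 at 4d 24h, where a defensin-led cluster took the progenitor-like name and left the comparison. There Camp was -0.20, 0.05 and -0.48 over the 3 pairs, Mmp8 0.02 at 2d 4h, and Ngp -0.62 and Lcn2 -0.74 at 4d 24h. Camp at 4d 4h was 0.02 with doublets kept.

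In late-stage cells at resolution 0.5 the 4d 24h log2 ratios were -1.10 for Camp, -2.42 for Ngp, -2.09 for Lcn2 and -0.11 for Pglyrp1. At 2d 4h Camp was -0.13 at resolution 2, and Ngp was -0.92 with members clustered. With stages named against all other cells, chosen after seeing the data, Camp was -0.14 and Ngp -0.56 at 2d 4h, and Mmp8 -0.24 at 4d 4h. The cause of these turns was not tested. Intermediate over late, the summed log2 ratio was 1.12 at resolution 0.5, 2.71 with members clustered and 1.51 with stages named against all other cells, and members at least 2-fold higher were 0 in the first and last. Pglyrp1 turned to -0.36 at resolution 0.5. The share of member UMIs in the lineage was 91.3% with doublets kept. The 51 Ltf UMIs in the neutrophil clusters limit what can be said of that gene.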
